A study of Ovis aries with 32 samples.

Results

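The cytosolic ribosomal proteins are the protein parts of the ribosome outside the mitochondria. The genes were chosen by name: every row called RPL or RPS followed by a digit, or RPSA, RPLP0, RPLP1 or RPLP2, without the RPS6K kinases. This gave 54 rows, and where a name was repeated the row with the highest mean was kept, which left 50 genes of 30722 rows. Of these, 26 encode proteins of the large subunit, 19 encode proteins of the small subunit and 5 are paralogues or genes whose name only resembles one. A list of 80 standard names, which also holds genes outside the name rule such as FAU and RACK1, had 48 found by name, and the other 32 were not analysed here.

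The samples came from male Tan sheep, a fat-tailed Chinese breed, aged 3 months. In the SA group succinic acid, a metabolite that mitochondria oxidise, was added to the basal diet at 1% of dry matter, and the CON group received the basal diet without it. Feeding lasted 60 days after 10 days of adaptation, with 12 sheep per diet in the trial and 4 per diet sequenced. Liver, tail fat and tissue labelled as hypothalamus or pituitary each have 4 libraries per diet, 32 in all. By these numbers the tissues share sheep, but the labels do not say which libraries come from one sheep.

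The tissue labels were checked against defining markers. In the libraries labelled hypothalamus, 7 hypothalamic markers summed to 5.59 to 14.2 TPM in SA and 7.40 to 9.93 TPM in CON, while 5 striatal neuron markers summed to 2040 to 3695 TPM in SA and 2157 to 3380 TPM in CON. In the libraries labelled pituitary, 7 pituitary markers summed to 2.92 to 5.93 TPM in SA and 2.88 to 4.89 TPM in CON, and CGA and FSHB, which encode pituitary hormone subunits, were at 0 in both diets. These libraries held neuron markers at 562 to 2566 TPM in SA and 1718 to 2454 TPM in CON. They are therefore called hypothalamus-labelled and pituitary-labelled. Hepatocyte markers in liver and adipocyte markers in tail fat were abundant.

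A ribosome joins a small subunit, which reads the message, to a large subunit, which forms the peptide bond. Each subunit carries its proteins in nearly fixed proportion, and the messages of these proteins share a pyrimidine tract at their start (TOP messages) through which the mTORC1 pathway and LARP1 control their translation. Their transcripts are among the most abundant of most cells.

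All values are TPM, a transcript level scaled to gene length and to the whole library, so levels can be compared between genes but a set of transcripts that takes more of a library lowers all others. The 50 genes held 2.47% to 3.04% of all TPM in hypothalamus-labelled SA libraries and 2.26% to 3.59% in CON. In pituitary-labelled libraries they held 3.09% to 3.62% in SA and 3.00% to 3.77% in CON. In liver they held 1.55% to 3.83% in SA and 3.67% to 4.08% in CON, and the ranges overlapped through SA replicate 4 alone. In tail fat they held 5.03% to 6.94% in SA and 4.60% to 9.25% in CON.

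Mitochondrially encoded transcripts moved with the diet in liver: they took 51.7% to 70.9% of TPM in SA livers and 20.2% to 27.8% in CON livers. With these genes and ribosomal RNA taken out, the ribosomal protein genes held 6.29% to 8.57% of the rest in SA livers and 4.86% to 5.68% in CON livers, so that the order of the diets was the opposite one and the ranges did not overlap. In tail fat the same share was 9.37% to 11.7% in SA and 12.0% to 16.5% in CON.

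**Figure D1:**
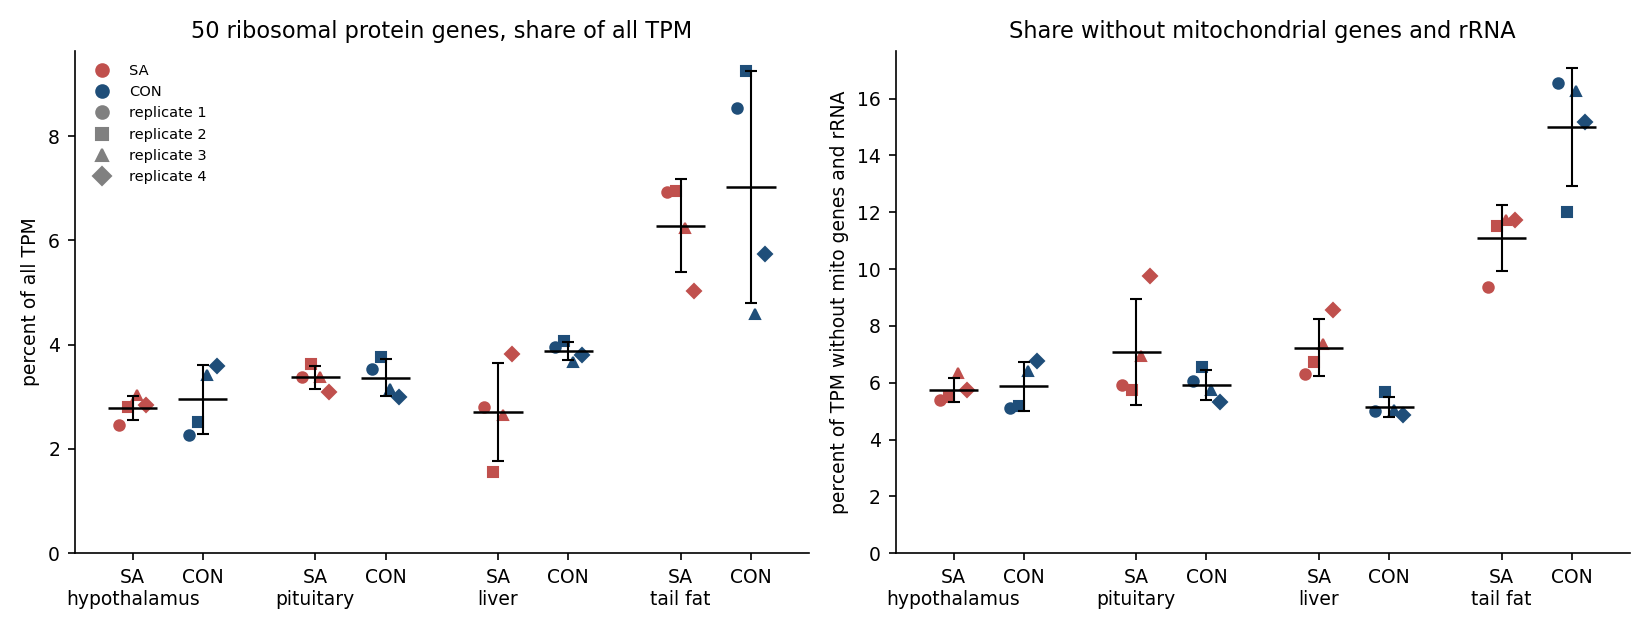
Share of the library held by the 50 ribosomal protein genes in each of the 32 libraries, as percent of all TPM (left) and as percent of TPM without mitochondrial genes and ribosomal RNA (right). Points are libraries, lines are means and bars are SD (n = 4). In liver the SA mean is below the CON mean on the left and above it on the right.

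The family had a steep order of levels. RPL23A, a large subunit protein near the exit of the peptide tunnel, was the most abundant structural member in all 8 groups, at 2212 ± 896 TPM in SA livers and 3614 ± 170 TPM in CON livers (SD, n = 4 each). It reached 4882 ± 1437 TPM in SA tail fat and 6587 ± 2284 TPM in CON tail fat. RPL37 ranked next in both brain-labelled tissues and in CON liver, with 2527 ± 270 TPM in hypothalamus-labelled SA libraries and 2660 ± 518 TPM in CON. In both diets in tail fat, and in SA liver, RPL31 ranked next, at 1454 ± 656 TPM in SA liver. RPL30 was the least abundant structural member in 7 of the 8 groups, with means between 34.2 and 77.2 TPM. The exception was SA liver, where RPS3A was lowest at 53.9 ± 20.8 TPM.

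Across the 45 structural members, Spearman's rho between group means was 0.984 for CON pituitary-labelled with CON hypothalamus-labelled libraries and 0.943 for CON liver with CON hypothalamus-labelled libraries. SA liver stood apart, with values from 0.674 to 0.819 against the other 7 groups. The coefficient was 0.675 for SA liver with CON liver, against 0.987 for SA with CON in hypothalamus-labelled libraries, 0.982 in pituitary-labelled libraries and 0.936 in tail fat. These are descriptions across genes, which are not independent replicates and share libraries and gene length corrections.

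**Figure D2:**
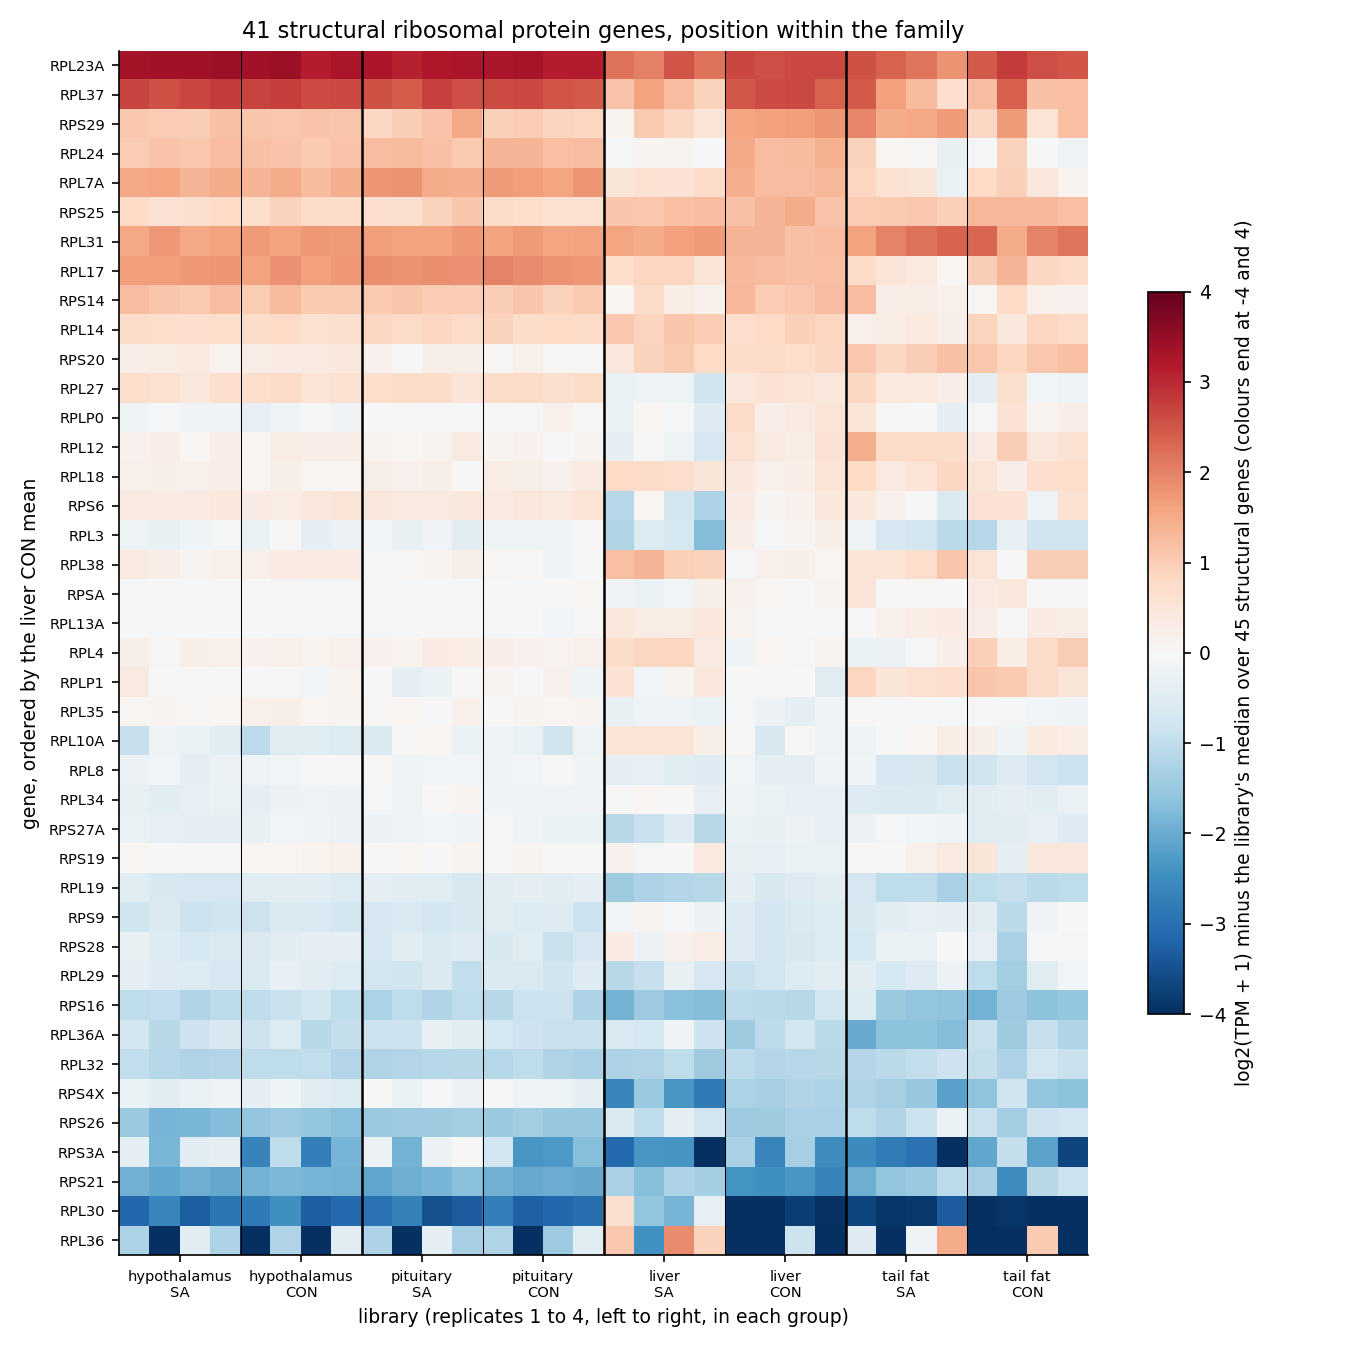
Position of 41 of the 45 structural ribosomal protein genes within the family, as log2(TPM + 1) minus the library's median over all 45, for the 4 replicates of each tissue and diet (columns). Genes are ordered by their mean in CON liver. RPL30 and RPL38 stand higher and RPL3 and RPS4X lower in the 4 SA liver columns than in the 4 CON liver columns, and RPL36 differs between replicates of one group.

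The first question was whether the SA diet changed these genes within a tissue. Genes that reached 1 TPM in 4 or more of a tissue's 8 libraries were tested with limma on log2(TPM + 1), with Benjamini-Hochberg adjustment over all genes tested and a threshold of 0.05. Of the 50 members, 48 were tested in each tissue and 49 in tail fat, where RPL3L also passed the filter.

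In SA liver, 21 of the 48 tested members were lower and 2 were higher on TPM as deposited. Over all 11582 genes tested in liver, 59.1% were lower and 5.21% higher. The median change of the members was -0.55 on the log2 scale, against -0.83 for all genes. The large and small subunit lists, which also hold genes outside the name rule, had 10 lower and 2 higher of 27 and 11 lower and 0 higher of 21. In bulk tissue, fewer cells of a type and less RNA per cell cannot be told apart. Hepatocyte markers, 6 of 6 found, summed to 7792 to 31315 TPM in SA livers and 94717 to 108186 TPM in CON livers, and 5 of 5 endothelial markers summed to 8.10 to 15.9 TPM in SA livers and 67.5 to 87.9 TPM in CON livers. The part of these differences and of the mitochondrial share in the members' changes was not tested.

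RPS4X, a small subunit protein encoded on the X chromosome in human, had 79.8, 91.3, 81.5 and 99.0 TPM in SA livers, against 237, 254, 234 and 234 TPM in CON livers. The groups did not overlap, and it fell by 1.44 ± 0.23 on the log2 scale (SE, limma adjusted p = 0.0005). RPL3, which lies close to the peptidyl transferase centre, had 213, 174, 255 and 211 TPM in SA livers, against 683, 598, 591 and 671 TPM in CON livers. It fell by 1.58 ± 0.26 (limma adjusted p = 0.000558), with no overlap.

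RPL37, a large subunit protein and among the most abundant members, had 1086, 776, 974 and 1349 TPM in SA livers, against 3221, 3873, 3404 and 2933 TPM in CON livers. It fell by 1.70 ± 0.30 (limma adjusted p = 0.000865). RPS6, the substrate of the S6 kinases, had 222, 270, 248 and 304 TPM in SA livers, against 723, 686, 609 and 766 TPM in CON livers. It fell by 1.42 ± 0.26 (limma adjusted p = 0.00105). RPL24, which forms a bridge between the subunits, had 480, 279, 456 and 711 TPM in SA livers, against 1630, 1483, 1313 and 1524 TPM in CON livers. It fell by 1.70 ± 0.34 (limma adjusted p = 0.00173). The diets did not overlap in any of the 3.

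Among the next members by p, RPS29, RPL27, RPS14 and RPL12 fell by 1.42, 1.26, 1.23 and 1.16 on the log2 scale. RPS3A fell by 1.54 ± 0.41 (limma adjusted p = 0.00873). RPLP0, the base of the stalk that recruits translation factors, fell by 1.07 ± 0.30 (limma adjusted p = 0.0102), and RPS27A, made as a fusion with ubiquitin, fell by 1.02 ± 0.32 (limma adjusted p = 0.0188). RPS16, RPL19, RPL7A and RPL17, the look-alike RPS19BP1 and the paralogue RPL26L1 were also called lower. Leaving out a single library ended the call of 7 of the 23 called members, among them RPL17, RPL26L1, RPL7A, RPS19BP1 and RPS27A.

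The 2 members called higher were RPL30 and RPL36, both of the large subunit. RPL30 had 774, 84.7, 113 and 572 TPM in SA livers, against 32.2, 29.8, 39.1 and 35.8 TPM in CON livers, a difference of 2.87 ± 0.68 on the log2 scale (limma adjusted p = 0.00459). All SA livers were above all CON livers. RPL36 had 1054, 46.6, 1539 and 1361 TPM in SA livers, and in CON livers it was listed at 0 in replicate 1 and had 3.05, 304 and 1.81 TPM in the others. The diets overlapped, since CON replicate 3 was above SA replicate 2. The fitted difference of RPL36 was 6.21 ± 1.78 (limma adjusted p = 0.0131), and it depends on the pseudocount because of the values near 0.

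Most of these calls depended on the scaling. Of the 23 called members, 20 lost the call without mitochondrial genes and ribosomal RNA, 8 of them with a change of sign, and 19 lost it with quantile normalization, where 4 changed sign. With mitochondrial genes and ribosomal RNA removed and the rest rescaled, the median change of all genes in liver moved from -0.83 to -0.0013, and 21 members were higher and 1 lower in SA liver. With quantile normalization 17 members were higher and 2 lower. The shares of all genes called under these 2 scalings are not given here, so the counts are no result about the members alone. RPL24 was lower, and RPL30 and RPL36 were higher, under TPM as deposited and under both of these scalings. No member was called in opposite directions by TPM as deposited and by the fit without mitochondrial genes.

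Centring on the family removes the scaling of the library and by construction places members on both sides of 0, so the values show only where members stand relative to each other. Relative to the members' own median in each library, 13 members were lower and 9 higher in SA liver. The share of all genes called under this setting is not given here, so these counts are no result about the members alone. The adjusted p values below refer to a reference that the members themselves set. At the low end stood RPL37 at -1.26 (limma adjusted p = 0.00159), RPL24 at -1.25 (0.00108) and RPL3 at -1.14 (0.00613), followed by RPS29 at -0.98. At the high end, after RPL36 and RPL30, stood RPS21 at 1.10 (limma adjusted p = 0.00246), RPL38 at 1.05, RPS28 at 0.81, RPS26 at 0.74, RPL10A at 0.73 and RPL4 at 0.72. RPL38, a large subunit protein, had 1149, 659, 805 and 1345 TPM in SA livers, against 541, 736, 647 and 597 TPM in CON livers, and on TPM as deposited its difference of 0.60 did not pass (limma adjusted p = 0.122).

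**Figure D3:**
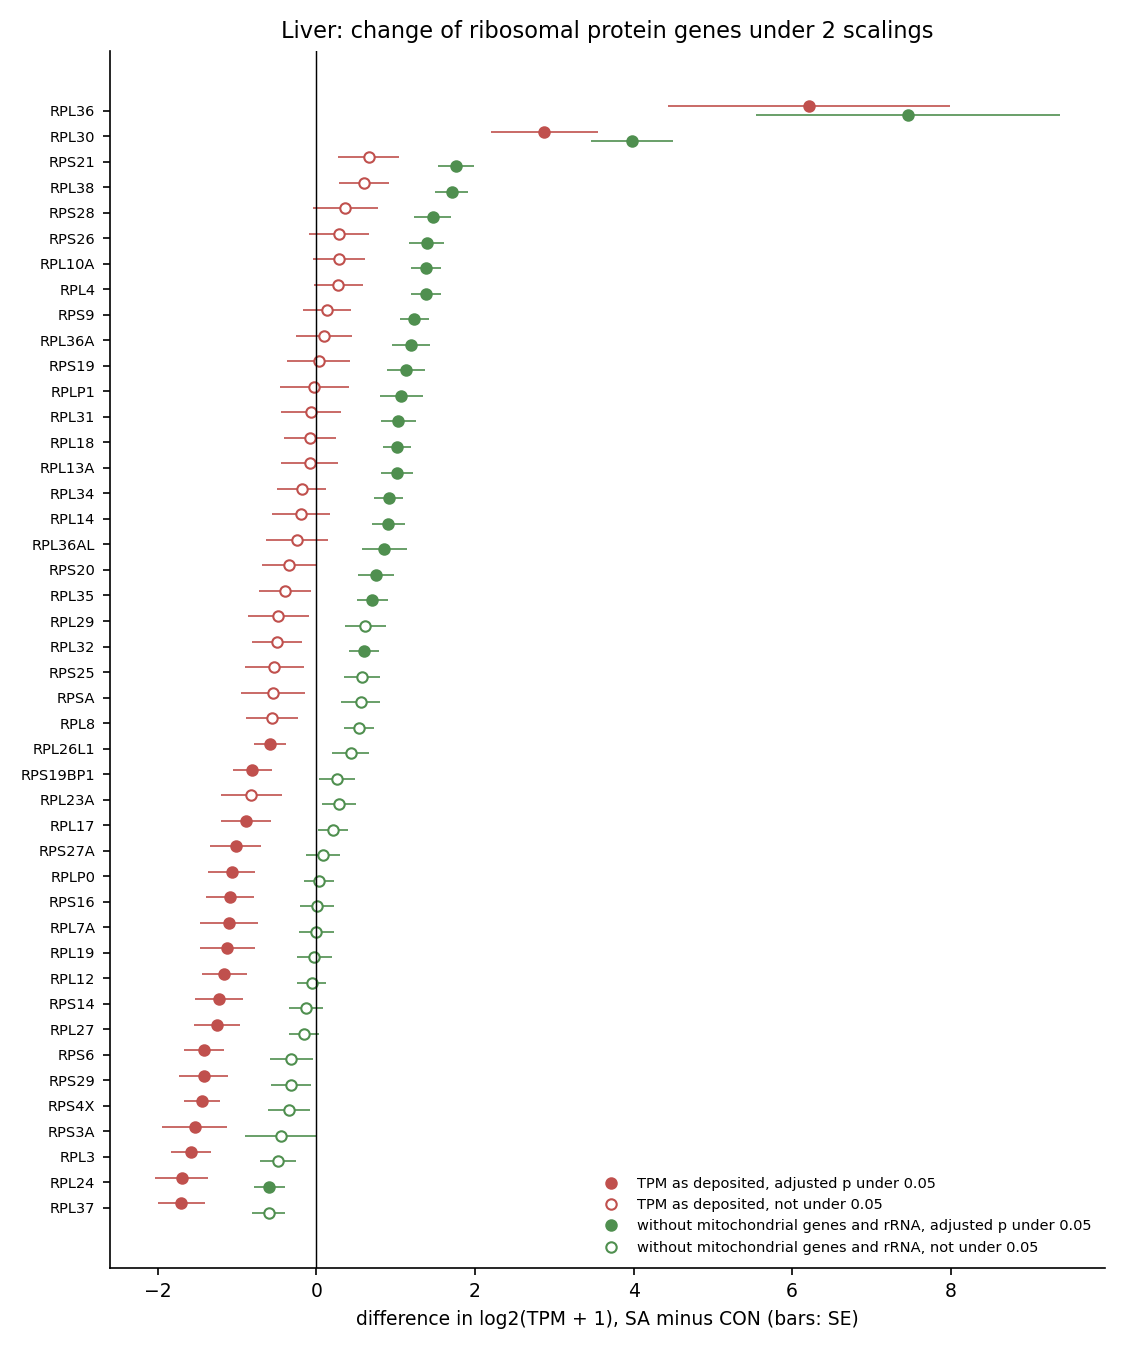
Difference in log2(TPM + 1) between SA and CON liver for 44 of the 48 tested ribosomal protein genes, with SE bars (n = 4 per diet), on TPM as deposited and without mitochondrial genes and ribosomal RNA. Filled points have an adjusted p under 0.05. The points of the second scaling lie to the right of those of the first, and the order of the genes is nearly the same.

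The ratio of RPL37 to RPL38 shows the change of order in single libraries. It was 0.946, 1.18, 1.21 and 1.00 in SA livers, against 5.96, 5.26, 5.26 and 4.92 in CON livers. Scaling of a library cancels in such a ratio. In the 16 hypothalamus-labelled and pituitary-labelled libraries it lay between 4.86 and 6.29. In tail fat it was 3.86, 2.09, 1.49 and 0.742 in SA, against 1.63, 5.21, 1.14 and 1.15 in CON, so that SA replicate 1 and CON replicate 2 stood above the other 6. Those 2 libraries also had 0.07 TPM and 0.12 TPM of CCDC152, while the other 6 had 57.8 to 186 TPM. CCDC152 was at 0 in all CON livers and at 168 to 842 TPM in SA livers. This pair of genes was picked with its values known, so the ratio is given without a test.

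**Figure D4:**
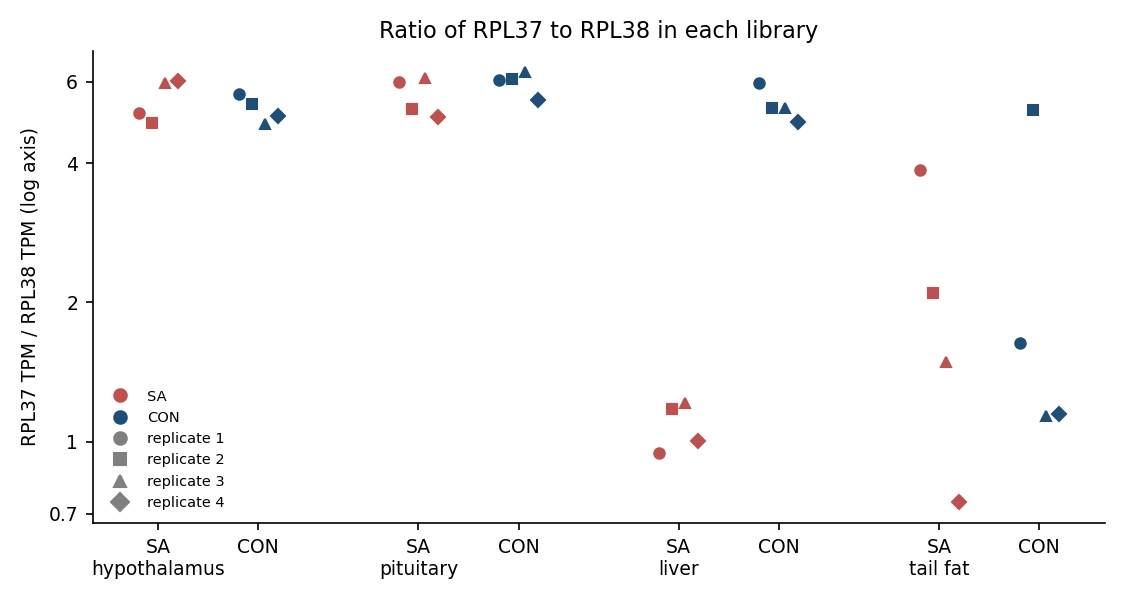
Ratio of RPL37 TPM to RPL38 TPM in each of the 32 libraries, on a log axis. The 4 SA livers lie at 0.946 to 1.21 and the 4 CON livers at 4.92 to 5.96, while tail fat lies between 0.742 and 3.86 in SA and between 1.14 and 5.21 in CON.

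In tail fat, 0 of 49 members were higher and 0 lower with SA by limma, against 0.277% higher and 0.42% lower of all 11185 genes tested. At an unadjusted p under 0.05 there were 2 members, RPL3L and RPL4. RPL4, a large subunit protein, had 817, 1014, 1032 and 1003 TPM in SA tail fat, against 2642, 1660, 1240 and 1817 TPM in CON tail fat. The groups did not overlap, but the difference of -0.88 ± 0.36 did not pass (limma adjusted p = 0.291). RPL3L, a paralogue of RPL3 found in heart and skeletal muscle in human and mouse, had 3.10, 0.97, 1.12 and 2.71 TPM in SA tail fat, against 0.20, 1.22, 0.39 and 0.35 TPM in CON tail fat (limma adjusted p = 0.257). With CON replicate 2 and SA replicate 1 left out, 0 members were called in either direction.

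In hypothalamus-labelled libraries 0 of 48 members were higher and 0 lower by limma, and in pituitary-labelled libraries likewise 0 of 48. Over all genes, 0% were higher and 0% lower in both tissues. At an unadjusted p under 0.05 there was 1 member in each tissue, RPS3A in both. RPS3A had 261, 112, 324 and 308 TPM in hypothalamus-labelled SA libraries, against 51.3, 164, 73.7 and 140 TPM in CON (difference 1.26 ± 0.44, limma adjusted p = 0.947). It had 409, 141, 390 and 414 TPM in pituitary-labelled SA libraries, against 285, 104, 93.6 and 133 TPM in CON (difference 1.16 ± 0.42, limma adjusted p = 0.747). SA replicate 2 was low in both tissues and overlapped CON. The deviations of same-numbered SA libraries of these tissues correlated at 0.144 to 0.453 across genes. By the number of sheep sequenced the tissues share sheep, so these 2 are not independent observations. Members with the next smallest p did not pass: RPS26, RPL19 and RPS21 differed by -0.23, -0.21 and -0.20 in hypothalamus-labelled libraries, and RPL26L1, RPS19BP1, RPL36AL and RPLP1 by -0.41, -0.28, 0.24 and -0.21 in pituitary-labelled libraries. The median change of the members was -0.11 in hypothalamus-labelled and -0.0097 in pituitary-labelled libraries, against 0.02 and -0.27 for all genes.

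RPL36 had the highest median coefficient of variation over the 8 groups among the structural members, at 91.1%, and RPS3A came next at 45.8%. RPL36 was at 0.40 TPM in SA replicate 2 of the hypothalamus-labelled libraries, where the other SA libraries had 143 to 320 TPM, and it was listed at 0 in CON replicates 1 and 3, where the others had 146 and 375 TPM. In pituitary-labelled libraries it was listed at 0 in SA replicate 2 and in CON replicate 2, and lay between 167 and 359 TPM in the other SA libraries and between 169 and 312 TPM in the other CON libraries. In tail fat it was 675, 2.07, 953 and 2344 TPM in SA, against 52.0, 0, 1506 and 3.83 TPM in CON. The lowest SA library was replicate 2 in all 4 tissues. Ribosomal protein genes have many near-identical copies, and how the authors' counting divided reads among them is not given, so levels of RPL36, RPS3A and RPL30 are uncertain.

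**Figure D5:**
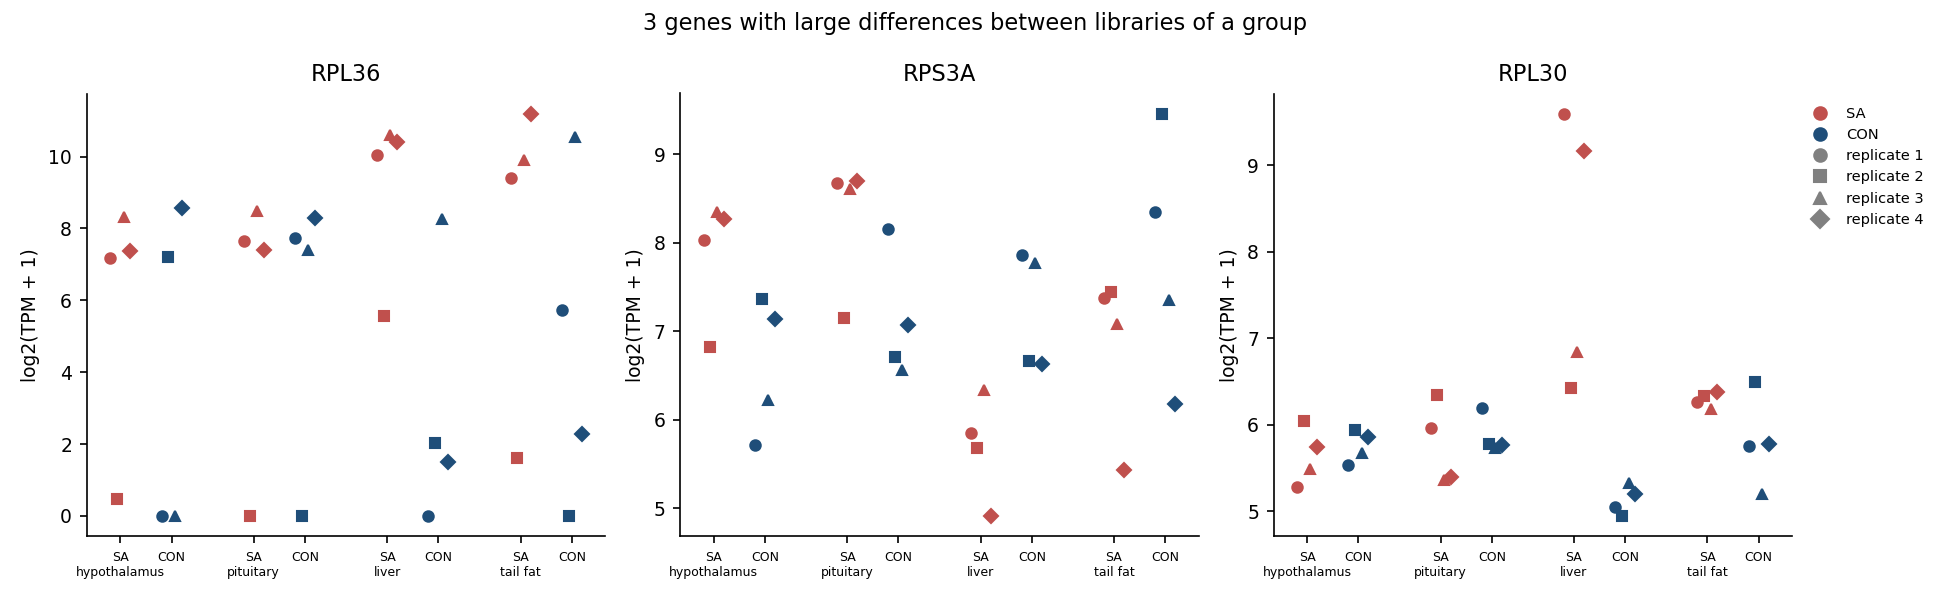
RPL36, RPS3A and RPL30 as log2(TPM + 1) in each library by tissue and diet, with a marker shape for each replicate number. RPL36 is near 0 in some libraries of every tissue and above 7 in others, and RPL30 is above 6 in all 4 SA livers and below 5.5 in all 4 CON livers.

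The second question was whether the diet effect differed between tissues, tested as the diet by tissue interaction in all 32 libraries. The fit took the libraries as independent, although the tissues share sheep. The diet effect differed for 17 of 49 members on TPM as deposited, against 27.0% of all 16360 genes tested. Of these 17, 12 lost the call without mitochondrial genes and ribosomal RNA and 11 with quantile normalization, while RPL30, RPL3L, RPL24, RPS3A and RPL4 kept it under both. RPL3L passed the filter through tail fat alone, at 0.97 to 3.10 TPM in SA and 0.20 to 1.22 TPM in CON. In the other tissues it lay at 0.43 TPM or less. Its call therefore rests on the values that let it pass. With the replicate number within each diet as a block, 4 of the 17 lost the call. Leaving out a single library ended 6 of the 17 calls, and that of RPL4 ended with any of 15 libraries left out. The smallest adjusted p values were those of RPL30 (limma adjusted p = 0.00104), RPL3 (0.00226), RPS29 (0.00252), RPL27 (0.00684), RPL3L (0.00858), RPL24 (0.00996), RPS3A (0.0106), RPS4X (0.0119), RPL37 (0.0124) and RPL12 (0.0131). The difference of RPL3 with SA was -1.58 in liver, -0.03 in hypothalamus-labelled, -0.10 in pituitary-labelled and 0.04 in tail fat libraries. That of RPL24 was -1.70, -0.07, -0.12 and -0.04 in the same order of tissues, and that of RPL37 was -1.70, -0.06, -0.0082 and -0.04. The tail fat values are differences of means over widely spread libraries. RPL37 ranged from 1343 to 5343 TPM in SA and from 1616 to 7024 TPM in CON tail fat. RPL24 ranged from 689 to 1844 TPM in SA and from 719 to 2556 TPM in CON tail fat.

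The third question was how the members differed between tissues on the CON diet, tested in the 16 CON libraries, again taken as independent. Between pituitary-labelled and hypothalamus-labelled libraries, 0 of 48 members were higher and 0 lower by limma, with 0 at an unadjusted p under 0.05, against 8.63% higher and 4.48% lower of all 15929 genes tested and 3597 genes at an unadjusted p under 0.05. Of the 48 members, 44 had a positive difference, against 72.5% of all genes tested. The members' median was 0.24, against a median of 0.21 for all genes. RPL10A, RPL7A, RPL18, RPLP0 and RPL36AL had the smallest p, with differences of 0.50, 0.51, 0.36, 0.45 and 0.38, and did not pass.

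Tail fat over liver had 28 of 48 members higher and 0 lower, against 20.8% higher and 23.3% lower of all genes. The members' median was 0.78, against -0.0065 for all genes, and the median of all genes became 0.39 without mitochondrial genes and ribosomal RNA. The same 28 were higher under that scaling and with quantile normalization. RPS21, a small subunit protein, had 539, 233, 332 and 498 TPM in CON tail fat, against 109, 115, 108 and 88.3 TPM in CON liver (difference 1.85 ± 0.27, limma adjusted p = 1.85e-05). RPLP1, an acidic stalk protein, had 2940, 2763, 1228 and 1278 TPM in CON tail fat, against 570, 656, 534 and 416 TPM in CON liver (1.81 ± 0.30, limma adjusted p = 8.34e-05). RPL4, RPL38, RPL31, RPS19 and RPS26 were higher by 1.59, 1.37, 1.56, 1.39 and 1.26 on the log2 scale. RPL18, RPS20 and RPL13A completed the 10 of smallest p. RPL3, RPL24 and RPL37 were not called, with differences of -0.05, -0.33 and -0.18. In the 4 tail fat libraries RPL37 had 3204, 7024, 1616 and 2088 TPM, with replicate 2 the highest. The RPL37 to RPL38 ratio was 1.63, 5.21, 1.14 and 1.15 in these libraries. It was 4.92 to 5.96 in CON livers and 0.946 to 1.21 in SA livers. CCDC152 was at 57.8 to 162 TPM in CON tail fat replicates 1, 3 and 4, and at 0 in CON livers. The part of this split among tail fat libraries in the tissue comparisons was not tested.

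Liver and tail fat together, over both brain-labelled tissues, had 34 of 48 members higher and 1 lower, against 17.4% higher and 61.8% lower of all genes. The members' median was 0.72 and that of all genes -0.85. RPS20, a small subunit protein, was 1.51 ± 0.17 higher (limma adjusted p = 2.36e-07), and RPS25, RPS26, RPL18, RPL10A and RPL38 were higher by 1.38, 1.16, 1.07, 1.30 and 1.04. The 1 lower member was RPL26L1, a paralogue of RPL26, at 10.99 to 13.9 TPM in CON liver and 11.5 to 22.4 TPM in CON tail fat, against 30.0 to 47.4 TPM in hypothalamus-labelled and 38.3 to 48.2 TPM in pituitary-labelled CON libraries (difference -1.43 ± 0.17, limma adjusted p = 3.86e-07). Of the 34 higher members, 25 were higher under both other scalings, and RPS14 was called lower with quantile normalization.

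Among the paralogues, RPL36AL had 440, 712, 629 and 474 TPM in CON liver and 1141, 886, 657 and 758 TPM in CON tail fat, against 197 to 324 TPM in hypothalamus-labelled and 274 to 405 TPM in pituitary-labelled CON libraries, and was called higher (limma adjusted p = 6.04e-06). Its parent RPL36A was higher by 0.57 (limma adjusted p = 0.00491). RPL3L lay at 0.15 to 0.43 TPM in hypothalamus-labelled and 0.28 to 0.39 TPM in pituitary-labelled CON libraries. RPS19BP1, which binds RPS19 and is no ribosomal protein, had 119, 82.9, 71.3 and 77.9 TPM in SA tail fat, against 54.8, 70.0, 25.9 and 54.9 TPM in CON tail fat. The groups did not overlap, but the difference of 0.82 ± 0.44 did not pass (limma adjusted p = 0.423). RPL10L, a testis paralogue of RPL10 in human and mouse, was listed at 0 in 30 of the 32 libraries and at 0.10 and 0.17 TPM in the other two. RPSA, which is also a laminin receptor, had 1702, 1823, 722 and 912 TPM in CON tail fat, against 646, 666, 541 and 616 TPM in CON liver, and was higher by 0.96 (limma adjusted p = 0.00857). In SA liver it had 453, 214, 386 and 846 TPM, a difference of -0.54 from CON liver that did not pass (limma adjusted p = 0.261).

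Other lists of translation genes were read against the 59.1% of all genes that were lower in SA liver on TPM as deposited, with a median change of -0.83. Of 29 initiation factors tested, 23 were lower and 1 higher, with a median of -1.60, and EIF4G1, the scaffold of the cap complex, fell by 2.90 ± 0.25 (limma adjusted p = 3.6e-05). Of 4 elongation factors, 3 were lower and 0 higher, among them EEF1A1, which carries aminoacyl-tRNA to the ribosome and fell by 2.98 ± 0.42 (limma adjusted p = 0.00027). Of 37 assembly factors 23 were lower and 0 higher, of 11 RNA polymerase I genes 7 were lower and 2 higher, and of 14 genes of mTORC1 and TOP control 12 were lower and 0 higher, among them LARP1, which fell by 2.15 ± 0.27 (limma adjusted p = 0.00014). Of 8 other TOP messages 5 were lower and 0 higher. The shares of the assembly factors, the RNA polymerase I genes and the other TOP messages lay near that of all genes. Without mitochondrial genes and ribosomal RNA, 13 initiation factors were lower and 2 higher with a median of -0.56, 3 assembly factors were lower and 2 higher, and the median of the other TOP messages was 0.23, a change of sign. The share of all genes called under that scaling is not given here. In the other 3 tissues none of these genes was called by limma for the diet.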

How the data were processed

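RNA enriched with oligo(dT) beads was sequenced from stranded libraries, per the labels' protocols. The submitters' processing notes name fastp, HISAT2 and RSEM. Their versions, the build, the annotation and the strand setting were not given in the sources used. The authors deposited TPM values. The read depth behind them is therefore unknown, and intervals for counting error were not computed. Library sums were 936939 to 987320 TPM. Nothing in the labels describes single replicates beyond their numbers, so p-values measure the spread between these libraries. By the number of sheep sequenced the tissues share sheep, and the main fits across tissues took libraries as independent.

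From the TPM, log2(TPM + 1) was tested two-sided with limma 3.58.1 in R 4.3.3 (trend and robust), keeping genes that reached 1 TPM in 4 or more of the libraries fitted, with Benjamini-Hochberg adjustment over all genes tested and a threshold of 0.05. Tables were made in Python 3.11.15. The fit was also run on simulated data, with noise drawn independently for each gene and library. These data held no shift of the mitochondrial share and no shared sheep. The outcome is not given here and cannot vouch for calls that depend on the scaling. Pairs of libraries with identical values numbered 0. Named per comparison were the 10 members of smallest p in each direction among those called (the 5 of smallest p where fewer than 5 passed), the paralogues with their parents, RPSA, RPLP0, RPLP1, RPS6, RPS27A, RPL10A and RPL38, the 3 highest and lowest levels and the 3 changes farthest from the members' median, of which the text gives those that matter. The ratio of RPL37 to RPL38, and CCDC152, were added with their values known. The members and lists were chosen with earlier results of these data known. Some members and genes of the lists are counted but not reported by name here. Alternatives were a pseudocount of 0.1, no filter, quantile normalization, removal of mitochondrial genes and ribosomal RNA, centring on the members' median, array weights, a replicate block and leaving out each library.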

Additional observations from a re-analysis of the deposited data

Results flagged for a closer look

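On TPM as deposited, the diet by tissue test called 17 of 49 members (limma adjusted p over all genes), against 27.0% of all genes, among them RPL30 (0.001043), RPL3 (0.002263), RPS29 (0.002524), RPL27 (0.006844), RPL3L (0.00858), RPL24 (0.009964), RPS3A (0.01056), RPS4X (0.01191), RPL37 (0.01237) and RPL12 (0.01305). Of the 17, 12 lost the call without mitochondrial genes and ribosomal RNA and 11 with quantile normalization. RPL3L passed the filter through tail fat alone.

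Of 282 groups of 4 values checked, 12 held a library far from the other 3, and chance gives about 1 in 20. RPL36 had 304.24 TPM in CON liver replicate 3 and 1505.92 TPM in CON tail fat replicate 3. In CON liver, RPL27 had 945.33 TPM and RPS4X 254.02 TPM in replicate 2, and RPL3L had 0.05 TPM in replicate 3. RPS3A had 141.27 TPM in pituitary-labelled SA replicate 2, below the others. In pituitary-labelled CON libraries, RPL30 had 72.47 TPM in replicate 1 and RPLP1 had 390.52 TPM in replicate 4. In SA tail fat replicate 1, RPL4 had 817.35 TPM and the members held 9.3712% of TPM without mitochondrial genes and ribosomal RNA, both below the others. RPL10L had 0.1 TPM in hypothalamus-labelled SA replicate 1 and 0.17 TPM in CON tail fat replicate 4.

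Among rows set aside because their name was repeated, the other row named RPL17 averaged 69.517 TPM in SA livers and 13.1 TPM in CON livers, and one other row named RPS25 averaged 5.82 TPM in SA livers and 0.0025 TPM in CON livers. Both were picked because all 4 SA livers were above all 4 CON livers, so that lack of overlap is no result. In the other rows set aside, named RPL30 and RPS25, the SA and CON livers overlapped.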

How the results depend on the processing

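In liver, the count of members higher with SA was 17 with quantile normalization, 21 without mitochondrial genes and ribosomal RNA, 9 relative to the members' median and 4 with array weights, and the count lower was 2, 1 and 13 under the first 3. In tail fat, array weights called 1 higher and 2 lower, quantile normalization 1 lower and the removal of mitochondrial genes 3 lower. Array weights called 3 members higher in pituitary-labelled over hypothalamus-labelled CON libraries. For tail fat over liver the count higher was 43 with quantile normalization, 47 without mitochondrial genes and 6 relative to the members' median, with 10 lower under the last. For liver and tail fat over the brain-labelled tissues, 9 were higher relative to the members' median, and the count lower was 9, 4, 16 and 2 with quantile normalization, without mitochondrial genes, relative to the members' median and with array weights. The centring on the members' median fixes a mix of higher and lower by construction. The shares of all genes called under these settings are not given, so the counts here and below are no results about the members alone. The interaction counted 27 and 31 under the first 2 scalings, but 11 and 12 of its 17 calls were lost there. The SA minus CON difference in the members' share changed sign in liver, to 2.09 percentage points without mitochondrial genes. It moved to 1.16 in the pituitary-labelled and -3.91 in the tail fat libraries. Among pituitary-labelled SA libraries, replicate 4 held 9.76% under this scaling and the others 5.73% to 6.93%. The pituitary-labelled CON libraries held 5.31% to 6.55%. The cause of these shifts was not tested.

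Leaving out 1 library at a time gave 2 to 7 higher and 15 to 23 lower in liver (7 without SA replicate 2), 23 to 36 higher and 0 to 2 lower for tail fat over liver (2 without tail fat CON replicate 2), 32 to 37 higher and 1 to 3 lower for liver and tail fat over the brain-labelled tissues (3 without the same library), and 13 to 18 for the interaction. Across all 103 called pairs of member and comparison, 1610 of 1732 such fits kept the call, 122 lost it and 0 changed sign. The pseudocount of 0.1 ended 0 calls, array weights 0 and no filter 3.

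The replicate block gave 2 higher and 17 lower in liver, 26 higher for tail fat over liver and 13 for the interaction. The numbers are not known to pair sheep: the deviations of same-numbered libraries of the 2 diets correlated above 0.1 in 4 of 16 pairs, and 5 of 32 libraries correlated best with their own number. Between tissues, 11 of 48 same-numbered pairs were above 0.1, among them all 4 pairs of SA hypothalamus-labelled and pituitary-labelled libraries (0.144 to 0.453) and none of the same 4 in CON (-0.379 to 0.0517). The replicate block of the interaction takes diet and number together, the other fits across tissues use CON libraries only.

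Changes of sign are given for the members named here. Without mitochondrial genes and ribosomal RNA, 8 changed sign in SA over CON liver, among them RPLP0 0.035, RPS16 0.0086, RPS19BP1 0.26, RPS27A 0.080, RPL26L1 0.43, RPL17 0.21. With quantile normalization, 4 changed sign in SA over CON liver, among them RPS19BP1 0.18, RPL26L1 0.29. With quantile normalization, 4 changed sign for liver and tail fat over the brain-labelled tissues, among them RPL31 -0.12, RPS14 -0.32. Relative to the members' median, 14 changed sign for liver and tail fat over the brain-labelled tissues, among them RPL31 -0.025, RPS21 -0.036, RPS19 -0.10, RPL29 -0.15, RPL34 -0.12, RPS27A -0.16, RPL3 -0.14, RPL36A -0.24, RPS6 -0.092, RPL35 -0.27, RPL19 -0.31, RPS14 -0.32, RPS16 -0.35. Relative to the members' median, 10 changed sign for tail fat over liver, among them RPL14 -0.085, RPS25 -0.0022, RPL23A -0.047, RPL36A -0.034, RPL29 -0.071, RPL34 -0.094, RPS27A -0.14, RPL30 -0.17. Of these, RPS14 under quantile normalization, and RPL35, RPL19, RPS14 and RPS16 relative to the members' median, were called lower for liver and tail fat over the brain-labelled tissues.

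TPM without depth limits what low values such as RPL10L and RPL3L can show.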

Other observations

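Some ribosomal proteins are encoded by genes outside the name rule. RACK1, which is bound to the small subunit, averaged 373 TPM in SA livers and 676 TPM in CON livers (difference -0.88 ± 0.30 on the log2 scale, limma adjusted p = 0.0265). FAU, whose product carries a small subunit protein, averaged 929 TPM in SA livers and 828 TPM in CON livers (0.06 ± 0.37, limma adjusted p = 0.896). In CON tail fat over CON liver, FAU was higher by 1.31 on the log2 scale.

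The median level of the small subunit members over that of the large subunit members lay between 0.675 and 0.852 in SA livers and between 0.774 and 0.80 in CON livers. In tail fat it lay between 0.794 and 0.934 in SA and between 0.686 and 0.848 in CON.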
